A study of Drosophila melanogaster with 4 samples.

Results

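The 46 genes described here carry secretory proteins into the endoplasmic reticulum (ER), cut off their signal peptides, fold them and move them between the ER and the Golgi. They were taken by symbol from a dm6 gene table in which 13946 genes of the major arms, chromosome 4 and Y code for a protein. The symbol matched for 45, and Spase18-21 matched as an older name of twr. What was measured is where the Drosophila transcription factor Ribbon (Rib), a nuclear protein with a BTB and a Pipsqueak DNA-binding domain, sat on chromatin, by chromatin immunoprecipitation and sequencing (ChIP-seq) of a GFP-tagged form. The chromatin came from whole embryos of stages 11 to 16 with the genotype fkh-GAL4::UAS-rib-GFP or sage-GAL4::UAS-rib-GFP. For both genotypes the embryos were collected over 8 h and aged for 11 h. Both drivers are used to express transgenes in the salivary gland, so Rib-GFP here came from a driven transgene in addition to whatever Rib the embryos make themselves. Each driver has 1 immunoprecipitated and 1 input sample that merge 3 collections, and the deposited list of peak positions of each immunoprecipitated sample was used. There are therefore no replicates, so values carry no replicate error and no test between the drivers could be made. The lists give no height or score and the read depth behind them is unknown, so a gene without a peak is not shown to be free of Rib.

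Proteins bound for secretion are recognised by the signal recognition particle (SRP) as they leave the ribosome and are threaded through the Sec61 channel into the ER. Signal peptidase removes the signal peptide and ER chaperones fold the chain. Vesicles with a COPII coat then carry cargo towards the Golgi, and vesicles with a COPI coat return escaped ER proteins. The embryonic salivary gland is a secretory organ in which the bZIP factor CrebA is known to raise the expression of many genes of this pathway.

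Few of these genes had a Rib-GFP peak nearby, and their shares were not set apart from those of all protein-coding genes. A gene is counted as having a peak where a peak overlaps its body or lies within 1 kb of it. The fkh-Gal4 list holds 4196 peaks, of which 3372 lie on the major arms, chromosome 4 and Y. In it 3 of 46 genes had a peak (6.52%, exact 95% interval 1.37 to 17.9), against 11.6% of all protein-coding genes. In the sage-Gal4 list of 907 peaks, of which 868 lie there, it was 1 of 46 (2.17%, 0.0550 to 11.5), against 5.62% of all protein-coding genes. Both shares were below the background, and both intervals include it. Long genes meet more peaks. The median length was 2.21 kb for the 46 genes and 2.16 kb for all protein-coding genes, and among genes no longer than the longest of the 46 (13.9 kb) the background shares were 8.05% and 3.81%. Counted only from the gene ends, with 1 kb on either side, the genes were again 3 (background 8.55%) and 1 (background 4.06%). No peak of either list lay within 1 kb of the other 43 genes.

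The 3 genes were Calr, Spase22-23 and Sec61alpha, and their peaks did not sit alike. Only at Calr did a peak touch the gene itself, where 8.15% of all protein-coding genes were overlapped by a fkh-Gal4 peak and 3.71% by a sage-Gal4 peak.

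Calr encodes calreticulin, a calcium-binding lectin chaperone of the ER, and spans chr3R:9628691-9630851 in dm6. A fkh-Gal4 peak at chr3R:9630790-9630860 crossed its higher-coordinate end, with its centre 26 bp from that end. The peak was 71 bp wide. It was thus among the narrowest of its list, in which 5.53% of peaks were no wider and the median width was 122 bp. No sage-Gal4 peak overlapped it, and the nearest one lay 77.2 kb from the gene. The next protein-coding gene on the side of the peak, SpdS, began 781 bp beyond it. The gene table gives no strand, so whether the bound end is the promoter cannot be told here.

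Spase22-23 encodes a subunit of signal peptidase and was the only one of the 46 with a peak within 1 kb in both lists, where 4.35% of all protein-coding genes had one. The gene spans chr3R:24228342-24230035. The fkh-Gal4 peak at chr3R:24230435-24230567 (133 bp) began 400 bp beyond its end, and the sage-Gal4 peak at chr3R:24230457-24230565 (109 bp) began 422 bp beyond it. The sage-Gal4 peak lay wholly inside the fkh-Gal4 peak. Both peaks crossed the end of another gene, mask, an ankyrin-repeat and KH-domain protein gene that begins at position 24230562. Their centres were 61 and 51 bp from that end of mask, and 466 and 476 bp from the end of Spase22-23. Both also lay within the long non-coding RNA gene lncRNA:CR45217, which overlaps the end of Spase22-23.

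Sec61alpha encodes the pore-forming subunit of the Sec61 channel and spans chr2L:6477182-6480575. Its fkh-Gal4 peak, at chr2L:6481501-6481580, lay 926 bp beyond the gene, just inside the 1 kb limit. The peak lay inside the neighbouring gene Daxx, which encodes a histone chaperone, with its centre 611.5 bp from the end of Daxx and 965.5 bp from that of Sec61alpha. It was 80 bp wide, and 16.1% of the list was no wider. The nearest sage-Gal4 peak was 110.0 kb away.

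**Figure D1:**
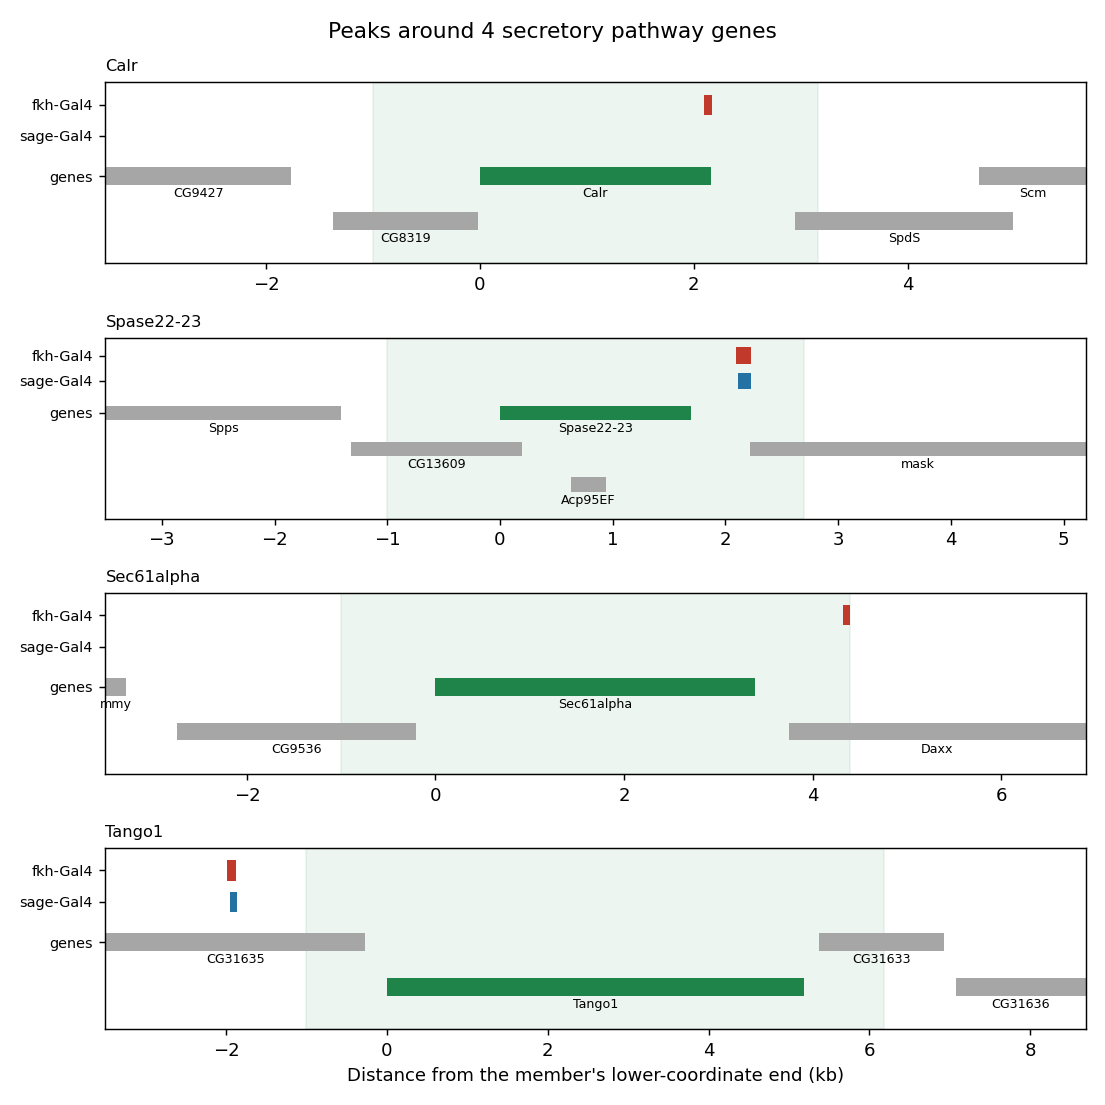
Genes and peaks around Calr, Spase22-23, Sec61alpha and Tango1. The horizontal axis is the distance in kb from the lower-coordinate end of the named gene (green bar), grey bars are other protein-coding genes, red and blue bars are fkh-Gal4 and sage-Gal4 peaks, and the pale band is the gene extended by 1 kb. The peak at Calr crosses the gene's own end, that at Spase22-23 crosses the end of mask, that at Sec61alpha lies inside Daxx, and the peaks by Tango1 lie outside the band.

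When each peak was given only to the protein-coding gene with the nearest end, Calr alone among the 46 kept a fkh-Gal4 peak, against 7.92% of all protein-coding genes, and no gene of the 46 kept a sage-Gal4 peak, against 3.71%. The peaks counted for Spase22-23 and Sec61alpha were nearer to mask and to Daxx.

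For the genes just outside the limit, the nearest peaks lay at or in other genes. These genes were taken because no peak lay within 1 kb of them, so that placement follows in part from the choice. For Spase12, another signal peptidase subunit, the nearest fkh-Gal4 peak (80 bp) lay 1175 bp away and between CG2321 and CG2006, at 25 and 99 bp from them. Spase12 itself lies inside CG2006. For Tango1, a transmembrane protein of ER exit sites that helps load bulky cargo, overlapping peaks of both lists (106 bp with fkh-Gal4, 79 bp with sage-Gal4) lay 1878 and 1867 bp from the gene, inside CG31635. Srp72 of the SRP was 3712 bp from a fkh-Gal4 peak inside bon. The SNARE gene Sec22 was 4209 bp from one inside CG43867. Sec24AB, an inner coat subunit of COPII that binds cargo, was 4731 bp from one of 353 bp that overlapped Lime and peo. In the sage-Gal4 list the next genes after Tango1 were twr at 7.94 kb, Sec13 at 8.17 kb, Sec22 at 9.48 kb and beta'COP at 12.7 kb. The step from Tango1 to twr left a gap in which none of the 46 genes lay.

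**Figure D2:**
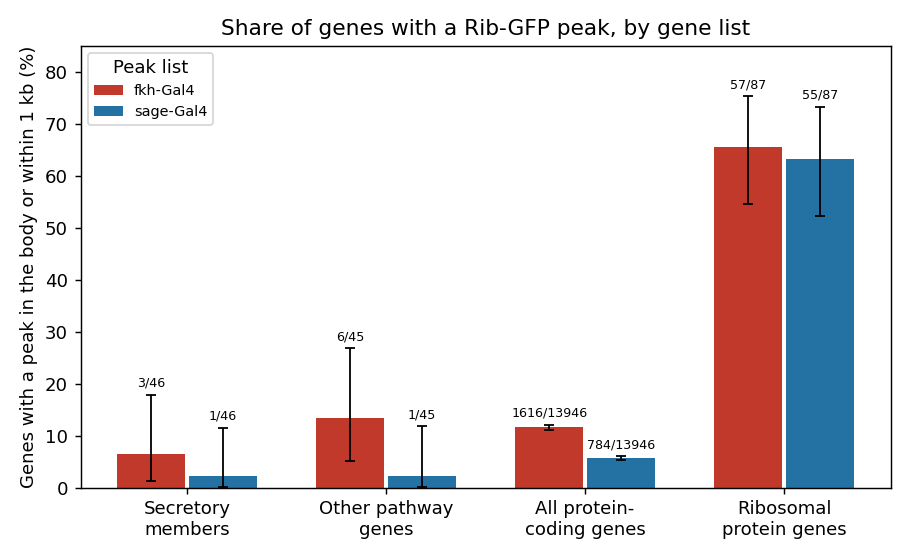
Percentage of genes with a peak in the gene body or within 1 kb, by gene list and driver. Bars are shares, error bars are exact 95% intervals that cover counting error only, and the fractions are genes with a peak over genes in the list. The 46 secretory pathway genes (3 and 1 genes) stand below all protein-coding genes in both peak lists, with intervals that include the share of all genes, and ribosomal protein genes stand highest.

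Other genes of the pathway were read in the same way from a further list of 45 matched genes, of 48 sought. In the fkh-Gal4 list 6 of 45 had a peak (13.3%, exact interval 5.05 to 26.8), and in the sage-Gal4 list 1 of 45 (2.22%, 0.0562 to 11.8), against the same backgrounds of 11.6% and 5.62%. At ERp60 and prtp, both thioredoxin-family proteins of the ER, fkh-Gal4 peaks of 93 and 116 bp crossed a gene end, and so did a peak of 102 bp at ArfGAP1, which encodes an activator of Arf GTP hydrolysis. The ERp60 peak ended 146 bp short of the translation factor gene eEF1alpha1. Stt3A, a catalytic subunit of the oligosaccharyltransferase that adds N-linked sugars, held overlapping peaks of 158 bp (fkh-Gal4) and 155 bp (sage-Gal4) inside the gene. Stt3A also contains snoRNA:Me28S-U3344a, snoRNA:Me28S-U3344b and scaRNA:MeU2-C28, and its peaks lay 608 and 621 bp from bves. Sec20, a SNARE gene, held 2 fkh-Gal4 peaks of 101 and 177 bp. The peak counted for Slh, a gene of SNARE-mediated fusion, lay 249 bp beyond it and crossed the end of oaf. Of the known regulators of the pathway, CrebA had a fkh-Gal4 peak of 153 bp across its lower-coordinate end and no sage-Gal4 peak nearer than 176.3 kb. Xbp1, a bZIP factor of the unfolded protein response, had its nearest fkh-Gal4 peak 1566 bp away and its nearest sage-Gal4 peak 41.6 kb away.

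For scale, genes of the cytoplasmic ribosome had a peak by the same rule at 57 of 87 in the fkh-Gal4 list (65.5%, exact interval 54.6 to 75.4) and at 55 of 87 in the sage-Gal4 list (63.2%, 52.2 to 73.3). Neither interval overlaps that of the 46 secretory genes. The intervals take genes as independent and cover counting error only, so this is a description and not a test.

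Over the steps of the pathway, distances from the gene body to the nearest peak edge ran from 0 to 120.3 kb in the fkh-Gal4 list. The median was 22.1 kb (quartiles 10.4 and 52.5), against 23.5 kb (7.54 and 50.9) over all protein-coding genes. In the sage-Gal4 list the distances ran from 0.422 to 516.3 kb, with a median of 75.6 kb (23.7 and 140.4) against 56.0 kb (20.9 and 124.7). The binomial 95% interval of the median of the 46 genes was 12.9 to 32.9 kb for fkh-Gal4 and 29.6 to 121.9 kb for sage-Gal4, and each includes the median of all genes. The sage-Gal4 list is shorter and its distances are longer in general, and a link between these was not tested. The fkh-Gal4 peak was the nearer at 38 of the 46 genes and the sage-Gal4 peak at 8 (17.4%, against 20.9% of all protein-coding genes).

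**Figure D3:**
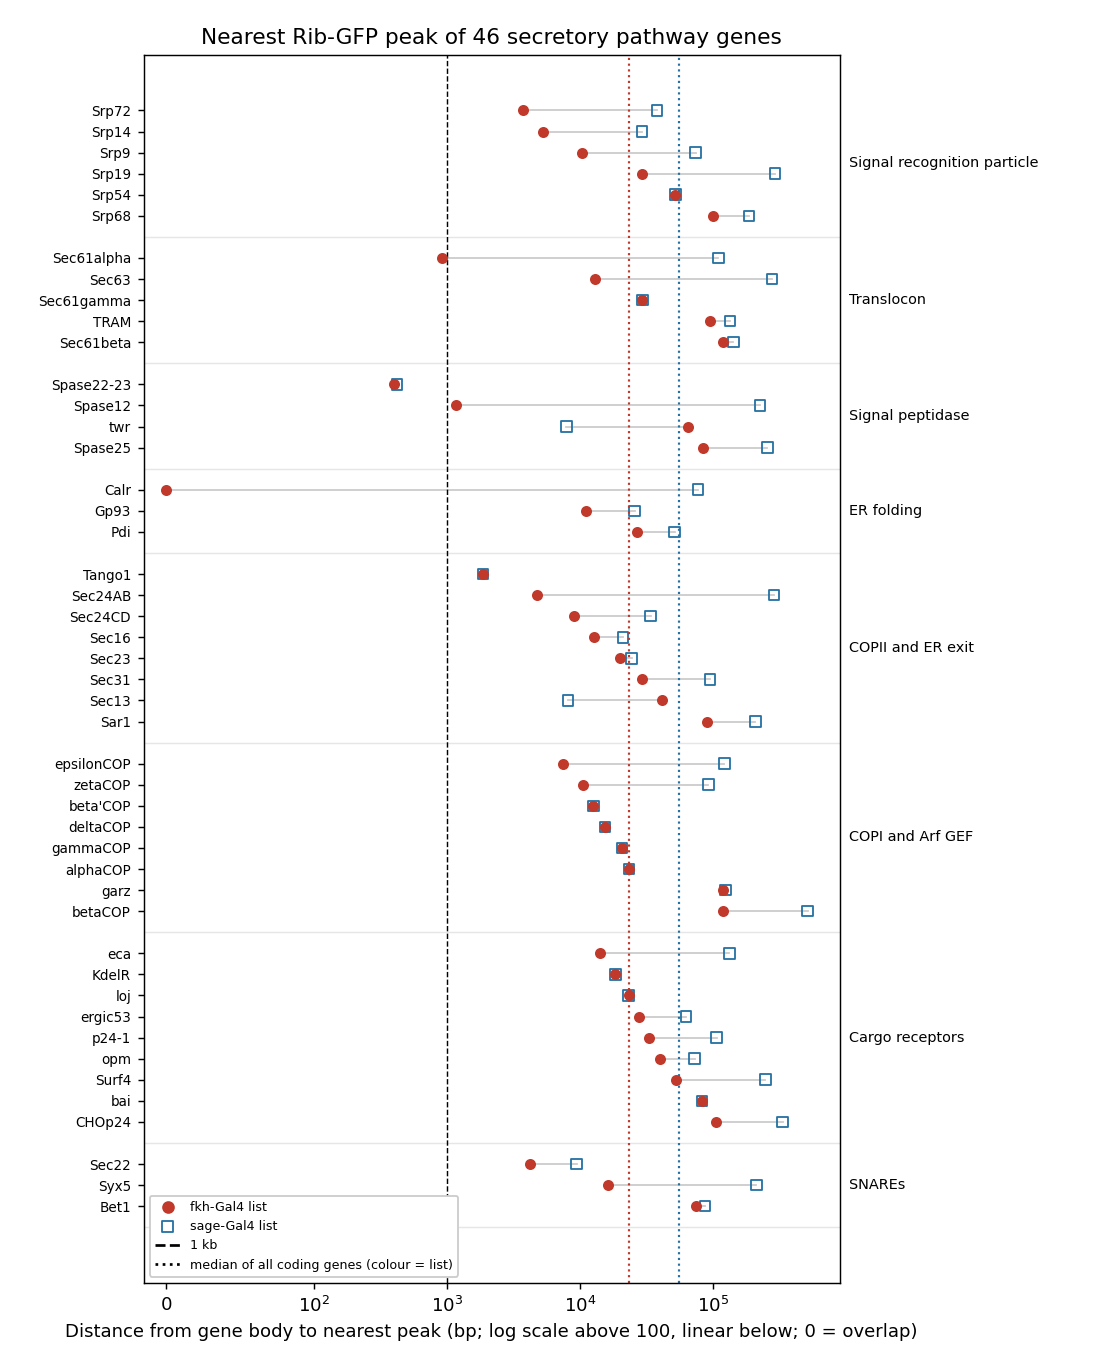
Distance in bp from each of the 46 genes to its nearest peak, by step of the pathway. Red circles are the fkh-Gal4 list and blue squares the sage-Gal4 list, the dashed line is 1 kb and the dotted lines are the medians over all protein-coding genes (23.5 and 56.0 kb); the axis is linear below 100 bp and logarithmic above. Calr, Spase22-23 and Sec61alpha lie left of the dashed line, and the markers of both lists coincide for genes such as Tango1, beta'COP and bai.

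The 6 SRP genes, whose products bind the signal peptide and slow translation, had no peak within 1 kb in either list. The exact interval for 0 of 6 is 0 to 45.9%, which includes the shares of all protein-coding genes (11.6% and 5.62%). Srp72 was nearest to a fkh-Gal4 peak at 3.71 kb and Srp68, its partner in the particle, farthest at 99.6 kb. Srp14 (5.29 kb) is the neighbour of Srp72, 7.95 kb away, and both have the same nearest sage-Gal4 peak, inside Stat92E. For Srp54, the GTPase that holds the signal peptide, the nearest peaks of both lists overlapped each other at 52.2 kb and crossed the end of the ribosomal protein gene RpL13.

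Of the 5 channel genes, Sec61alpha had the peak described above and its partners did not. In the fkh-Gal4 list the exact interval for 1 of 5 is 0.505 to 71.6%, which includes the 11.6% of all protein-coding genes. Sec61gamma was 29.6 kb from peaks of both lists that overlap, inside Shawn and Tyler. Sec61beta was 120.3 kb from a fkh-Gal4 peak, the farthest of all 46 genes in that list. Sec63, which couples the channel to the chaperone BiP, was 13.1 kb and TRAM, a channel-associated membrane protein, 95.6 kb from one. Genes of 1 channel thus ranged from 0.926 to 120.3 kb. In signal peptidase, Spase22-23 and Spase12 were the near genes. The catalytic subunit twr was 64.8 kb from a fkh-Gal4 peak but 7.94 kb from a sage-Gal4 peak inside the Hox gene lab, and Spase25 was 84.9 and 257.3 kb from them. The other chaperone genes lay farther out than Calr. Gp93, the ER form of Hsp90, was 11.1 kb from a fkh-Gal4 peak and 25.9 kb from a sage-Gal4 peak, and Pdi, which rearranges disulfide bonds, 27.0 and 51.6 kb.

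The 8 genes of COPII and ER exit had no peak within 1 kb, with a median distance of 16.5 kb in the fkh-Gal4 list and 29.3 kb in the sage-Gal4 list. Tango1 was the nearest in both. Sar1, the GTPase that starts coat assembly, was the farthest from a fkh-Gal4 peak at 90.4 kb, and Sec24AB the farthest from a sage-Gal4 peak at 289.0 kb. Between these stood Sec24CD (9.05 kb), the scaffold gene Sec16 (12.9 kb), Sec23 (20.1 kb) and the outer coat genes Sec31 (29.3 kb) and Sec13 (41.7 kb), all to a fkh-Gal4 peak.

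The 8 genes of COPI include garz, which encodes the exchange factor that loads Arf with GTP. Their nearest peaks began at 7.51 kb (epsilonCOP) in the fkh-Gal4 list and 12.7 kb (beta'COP) in the sage-Gal4 list. The exact interval for 0 of 8 within 1 kb is again 0 to 36.9%, which includes the shares of all protein-coding genes (11.6% and 5.62%). The nearest peak of epsilonCOP was the one that lies by Sec61alpha, 8.52 kb along the chromosome. For 4 coat genes the nearest peaks of both lists overlapped: beta'COP (12.7 kb, across an end of RpL24), deltaCOP (15.4 and 15.5 kb), gammaCOP (20.9 kb in each list, inside nyo) and alphaCOP (23.4 kb, across an end of RpL23A). At the other extreme, betaCOP was 120.1 and 516.3 kb from a peak, the latter the longest distance of all, and garz 119.3 and 124.4 kb.

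The 9 cargo receptor genes had median distances of 32.9 kb in the fkh-Gal4 list and 82.9 kb in the sage-Gal4 list. The p24-family gene eca was the nearest in the fkh-Gal4 list at 14.3 kb and CHOp24, of the same family, the farthest at 106.0 kb. KdelR, the receptor that returns ER proteins from the Golgi, was 18.5 kb from overlapping peaks of both lists that cross the shared end region of RpS27A and Ip259. The p24 genes loj (23.3 kb) and bai (83.0 and 82.9 kb) also had overlapping nearest peaks, while p24-1 (32.9 kb) and opm (40.3 kb) were farther from a sage-Gal4 peak, at 106.9 and 72.9 kb. The lectin receptor ergic53 was 27.8 kb and Surf4, a membrane receptor of soluble cargo, 52.7 kb from a fkh-Gal4 peak. Of the SNARE genes of ER to Golgi fusion, Sec22 was followed by Syx5 at 16.2 kb and Bet1 at 75.2 kb, the last from a peak across an end of pip, a sulfotransferase gene of the salivary gland.

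**Figure D4:**
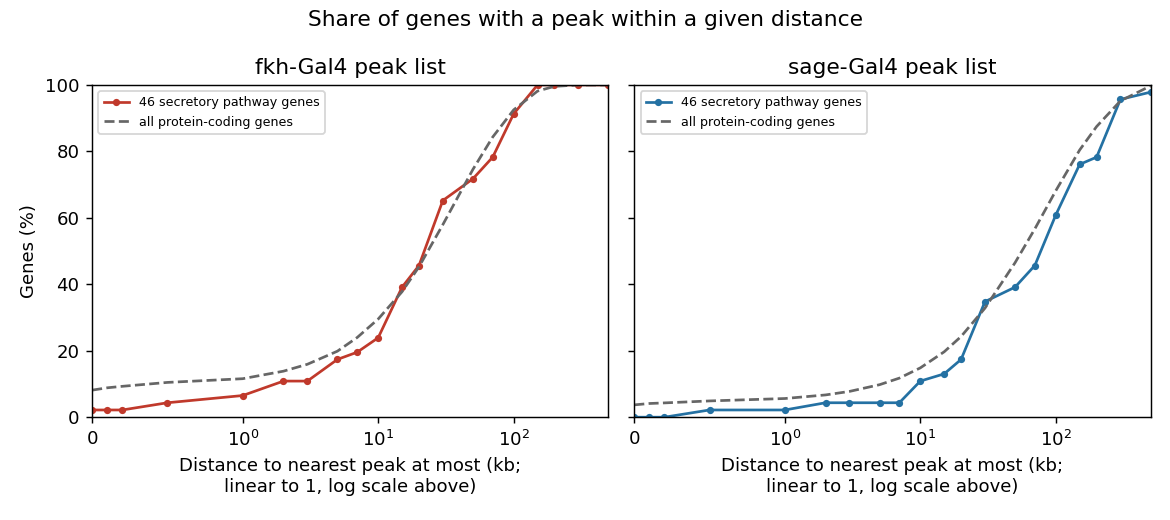
Cumulative percentage of genes whose nearest peak lies within the distance on the horizontal axis (kb, linear to 1 and logarithmic above), for the 46 secretory pathway genes (solid, with points) and all protein-coding genes (dashed). In the fkh-Gal4 list the secretory genes lie under the dashed curve up to 10 kb (23.9% against 29.5%), above it at 15 to 30 kb (65.2% against 58.0% at 30 kb) and under it again at 50 kb. In the sage-Gal4 list they lie under it at 10 kb (10.9% against 14.8%) and at 100 kb (60.9% against 68.2%), and above it at 30 kb (34.8% against 32.8%).

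Counted by distance, 11 of the 46 genes (23.9%) had a fkh-Gal4 peak within 10 kb, against 29.5% of all protein-coding genes. Within 30 kb it was 30 (65.2%, against 58.0%), and within 50 kb 33 (71.7%, against 74.6%). For sage-Gal4 these counts were 5 (10.9%, against 14.8%), 16 (34.8%, against 32.8%) and 18 (39.1%, against 46.5%). The side of the background on which the 46 genes stood thus changed with the distance in both lists. No fkh-Gal4 peak lay within 50 kb of 13 genes (28.3%, against 25.4% of all genes), and no sage-Gal4 peak within 50 kb of 28 (60.9%, against 53.5%).

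The nearest peaks of both lists overlapped each other for 11 of the 46 genes (23.9%, against 22.3% of all protein-coding genes). The genes do not count separately throughout: they share 44 distinct nearest fkh-Gal4 peaks and 41 distinct nearest sage-Gal4 peaks, and 3 pairs lie within 20 kb of each other (Srp14 and Srp72, Srp19 and Sec63, Sec61alpha and epsilonCOP). A coding gene outside the 46 had an end at most 1 kb from the peak centre for 27 of the 44 fkh-Gal4 peaks (61.4%) and 25 of the 41 sage-Gal4 peaks (61.0%). Over the distinct nearest peaks of all protein-coding genes the shares were 45% of 1773 and 48.1% of 771. Over all peaks on the arms and chromosomes used they were 26% of 3372 and 43.7% of 868. These shares are not like for like with those of the 46 genes. Each background peak counts once however many genes it is nearest to, and a background gene's own end counts. The difference is therefore not shown to be a trait of the 46 genes. An end of a ribosomal protein gene was within 1 kb of the nearest fkh-Gal4 peak for 4 genes (8.70%, against 5.38% of all protein-coding genes) and of the nearest sage-Gal4 peak for 9 (19.6%, against 10.1%). Those 9 were Srp54, Gp93, Sec23, Sec24AB, alphaCOP, beta'COP, KdelR, opm and ergic53, at distances from 12.7 to 289.0 kb.

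By chromosome arm, the 3 genes with a peak lie on 2L (1 of 8) and 3R (2 of 14). None of the 10 genes on 3L, the 10 on X and the 4 on 2R had one. Shares of all genes by arm are not given here. Over all arms 11.6% of protein-coding genes had a fkh-Gal4 peak, so these small counts do not set the arms apart. The median distance to a fkh-Gal4 peak ran from 10.9 kb over the 8 genes on 2L to 74.3 kb over the 4 on 2R. Over all protein-coding genes the medians were 22.0 kb on 2L and 22.5 kb on 2R. The 4 distances on 2R were 4.73, 29.3, 119.3 and 120.3 kb, so that median rests on few and widely spread values.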

How the data were processed

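The authors deposited for each driver a list of peak positions, with the chromosome, start and end in 3 columns and no other value. BWA, MACS2 2.1.0.20140616 and dm6 are named per the submitters' processing notes, and replicates were merged per the labels. No source used here gives the threshold, the control or the filters. Starts were shifted to count from 1. A RefSeq table of the same assembly placed the genes, without strand or transcript starts, so counts and distances by gene start were not made. No sequence was used here, so the intended promoter motif search was not run and no sequence is shown. Distances run from gene body to peak edge, with an overlap of 1 bp giving 0, and were checked on peaks planted at known gaps from 200 genes, of which 0 were missed. Intervals are exact (Clopper-Pearson) or, for medians, binomial order statistics, at 95%. They take genes as independent, which neighbours are not, and cover counting error only. No test was made, since each driver has 1 list. Genes named are those with a peak, the 5 just outside 1 kb, the nearest and farthest of each step, other pathway genes with a peak, CrebA and Xbp1; the other genes of the 46 were added after their values were seen. The 46 genes, the further list and the settings were chosen with earlier results of these data known. Ribosomal protein genes were taken by symbol. Python 3.11.15, numpy 2.4.6 and scipy 1.17.1 were used.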

Additional observations from a re-analysis of the deposited data

How the results depend on the processing

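Counts and distances by gene start were not run for want of strand. No paired analysis was possible because each driver has 1 merged list, and for the same reason no replicate could be left out. The fkh-Gal4 count of 3 genes became 5 with a 2 kb extension (10.9%, against 13.9% of all protein-coding genes). It became 1 with the gene body alone (background 8.15%), with each peak given to the nearest gene end (background 7.92%), or with the wider peaks of the list. It was 0 with the widest fkh-Gal4 peaks, as many as in the sage-Gal4 list, an alternative chosen after seeing the data. For the wider and widest peaks no share over all genes is given, so those counts have no background. The sage-Gal4 count of 1 became 2 with a 2 kb extension (4.35%, against 6.7% of all protein-coding genes). It became 0 with the gene body alone or by nearest end (background 3.71% for each). The median fkh-Gal4 distance moved from 22.1 to 51.9 kb with the wider peaks and to 104.3 kb with the widest, both of which hold fewer peaks. The other alternatives kept counts within 1.5 times and medians within their interval. These were a 500 bp extension (2 and 1), gene ends, peak centres, major arms and peaks merged within 500 bp, and, for sage-Gal4, the wider peaks (1 gene, median 115.9 kb). Depth, and so what the lists can miss, is unknown.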
